A study of Mus musculus with 4 samples.

Results

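The expression of 8 genes that write, maintain or erase DNA methylation was examined in undifferentiated spermatogonia (A_undiff) of the mouse testis. The genes were Dnmt1, Uhrf1, Dnmt3a, Dnmt3b, Dnmt3l, Tet1, Tet2 and Tet3. They were chosen by function and matched by symbol, and all 8 were among the 27514 genes listed in every library. The cells came from wild-type C57BL/6J males aged 6 to 8 weeks and were sorted from testis suspensions as E-cadherin+ CD49f+ c-KIT– cells, a gate that keeps A_undiff and removes c-KIT+ differentiating spermatogonia. Mice were untreated (CTRL) or had received one dose of busulfan, an alkylating agent that kills most spermatogonia, at 10 mg/kg and were analysed 10 days later (BU). Both groups were processed in 2 independent experiments, which gave the libraries CTRL 1, BU 1, CTRL 2 and BU 2, each pooled from 3 mice. Differences between mice within a pool can therefore not be seen, and n is the number of libraries throughout.

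DNA methylation is copied at replication by Dnmt1, which Uhrf1 brings to hemimethylated sites on the new strand. New methylation is set by Dnmt3a and Dnmt3b, assisted in germ cells by Dnmt3l, a relative without catalytic activity. Tet1, Tet2 and Tet3 oxidise 5-methylcytosine, which opens the way to its removal. In the male germline most methylation is laid down before birth, and adult spermatogonia maintain it while they divide, self-renew and commit to differentiation.

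On GRCm38 (GENCODE M21), Dnmt1 lies at chr9:20907209-20959888 (minus strand), Uhrf1 at chr17:56303321-56323486 (plus), Dnmt3a at chr12:3806007-3914443 (plus), Dnmt3b at chr2:153649450-153687730 (plus) and Dnmt3l at chr10:78041947-78063622 (plus). Tet1 lies at chr10:62804570-62908996, Tet2 at chr3:133463679-133545139 and Tet3 at chr6:83362373-83459084, all on the minus strand. All 8 are protein-coding. Exons on the other strand overlap those of Dnmt3a (Dnmt3aos), Dnmt3l (Aire) and Tet2 (Gm42567).

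The promoter windows of the maintenance pair are shown because the levels of both genes tracked the cell cycle genes below. RefSeq windows on GRCm38.p6, from 250 bases before to 50 after each start site, were searched on both strands for the letters TTTCCCGC, TTTGGCGC, TTTCGCGC and TTTGCCGC, typical of sites for E2F factors, which drive S phase genes. All 8 genes had a window, 15 windows in all. Of these, 1 window of Dnmt1 and 1 of Uhrf1 held such letters, against 744 of 32851 promoters (2.26%). The Dnmt1 window was chr9:20952574-20952873 on the minus strand, with the first match 219 bases before the start site and read on the opposite strand. The Uhrf1 window was chr17:56304063-56304362 on the plus strand, with its match 185 bases before the start site. Capitals mark the matches, and each window held 33 CpG dinucleotides, against a median of 7 over all promoters. Every searched string holds a CpG, and the 2.26% was not matched for CpG content. A match describes the letters and shows neither binding nor use of the site.
Dnmt1: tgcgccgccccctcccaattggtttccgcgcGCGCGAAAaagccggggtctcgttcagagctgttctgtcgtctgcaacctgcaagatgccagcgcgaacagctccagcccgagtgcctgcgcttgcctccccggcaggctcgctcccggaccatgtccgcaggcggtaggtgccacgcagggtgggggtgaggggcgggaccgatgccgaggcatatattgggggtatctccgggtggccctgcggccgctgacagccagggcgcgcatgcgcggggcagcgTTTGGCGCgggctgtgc
Uhrf1: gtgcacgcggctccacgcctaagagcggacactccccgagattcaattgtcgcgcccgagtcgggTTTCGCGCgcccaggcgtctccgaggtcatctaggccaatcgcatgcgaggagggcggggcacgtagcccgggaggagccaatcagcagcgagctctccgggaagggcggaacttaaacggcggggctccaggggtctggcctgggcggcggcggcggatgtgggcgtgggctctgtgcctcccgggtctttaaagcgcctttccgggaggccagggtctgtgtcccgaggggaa

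The libraries held 21136369 to 53579969 UMIs (unique molecular identifiers, 1 per captured RNA molecule). Barcodes were kept as cells above 1000 genes and below a mitochondrial share of 20%, which left 7493 cells, with a median of 8066 and 9857.5 UMIs in experiment 1 and of 30931 and 34176.5 in experiment 2. CTRL 2 and BU 2 shared 677 cell barcodes, 36.4% of those of the smaller library, of which 70 were in kept cells of both. CTRL 1 and BU 1 shared 11. Spermatid markers alone called 373 cells, of which 161 were in CTRL 2 and 147 in BU 2, and somatic markers called 122. Of the somatic cells, 7 in CTRL 2 and 9 in BU 2 were also spermatid by markers. Results that moved without the cells of shared barcodes or without the marked spermatid and somatic cells are given both ways. Levels are CPM, the UMIs of a gene scaled to 1000000 UMIs of the summed cells of a class in a library.

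Cells were classed by the gene they carried: Gfra1, a receptor component of stem-enriched A_undiff, Sox3, a factor of progenitors, or Kit, the receptor of differentiating cells. A class held cells above the study's level for 1 of these genes and for neither of the others. In CTRL 1, CTRL 2, BU 1 and BU 2 there were 433, 134, 729 and 454 Gfra1+ cells, 1299, 552, 245 and 128 Sox3+ cells, and 10, 15, 152 and 53 Kit+ cells. The 8 stem-enriched markers, Gfra1 included, summed to 661.5 to 945.0 CPM in Gfra1+ cells and to 83.0 to 216 CPM in Sox3+ cells. The 8 progenitor markers, Sox3 included, summed to 578 to 1273 CPM in Sox3+ and to 156 to 321 CPM in Gfra1+ cells. Gfra1 itself was at 139 to 190 CPM in Gfra1+ and at 0.334 to 19.0 CPM in Sox3+ cells. Sox3 was at 153 to 216 CPM in Sox3+ and at 0.308 to 15.4 CPM in Gfra1+ cells. Part of both gaps was thus set by the classing. The 8 differentiation markers, Kit included, summed to 691 to 1690 CPM in Kit+ cells, a range that overlapped the 960 to 1696 CPM of Gfra1+ cells, so this list did not set the Kit+ cells apart. Of the 15 Kit+ cells of CTRL 2, 9 were spermatid or somatic by markers, and their somatic markers summed to 7833 CPM against 7.88 to 44.5 CPM in the other Kit+ sums.

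Sox3+ cells held more of the de novo enzymes and of Tet3 and less of the maintenance pair than Gfra1+ cells. Of the 6 genes tested, Dnmt3a, Dnmt3b, Dnmt3l and Tet3 were higher and Dnmt1 and Uhrf1 lower in Sox3+ cells, each in the same direction in 4 of 4 libraries. Among all 12216 genes tested, 13.6% passed the threshold, 6.39% higher and 7.18% lower (edgeR quasi-likelihood test over 12 sums of class and library with the library as a term, two-sided, Benjamini-Hochberg adjusted p under 0.05). The median log2 difference was 1.00 over the 6 genes and 0.00 over all genes. Tet1 and Tet2 were below the filter on low counts.

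**Figure D1:**
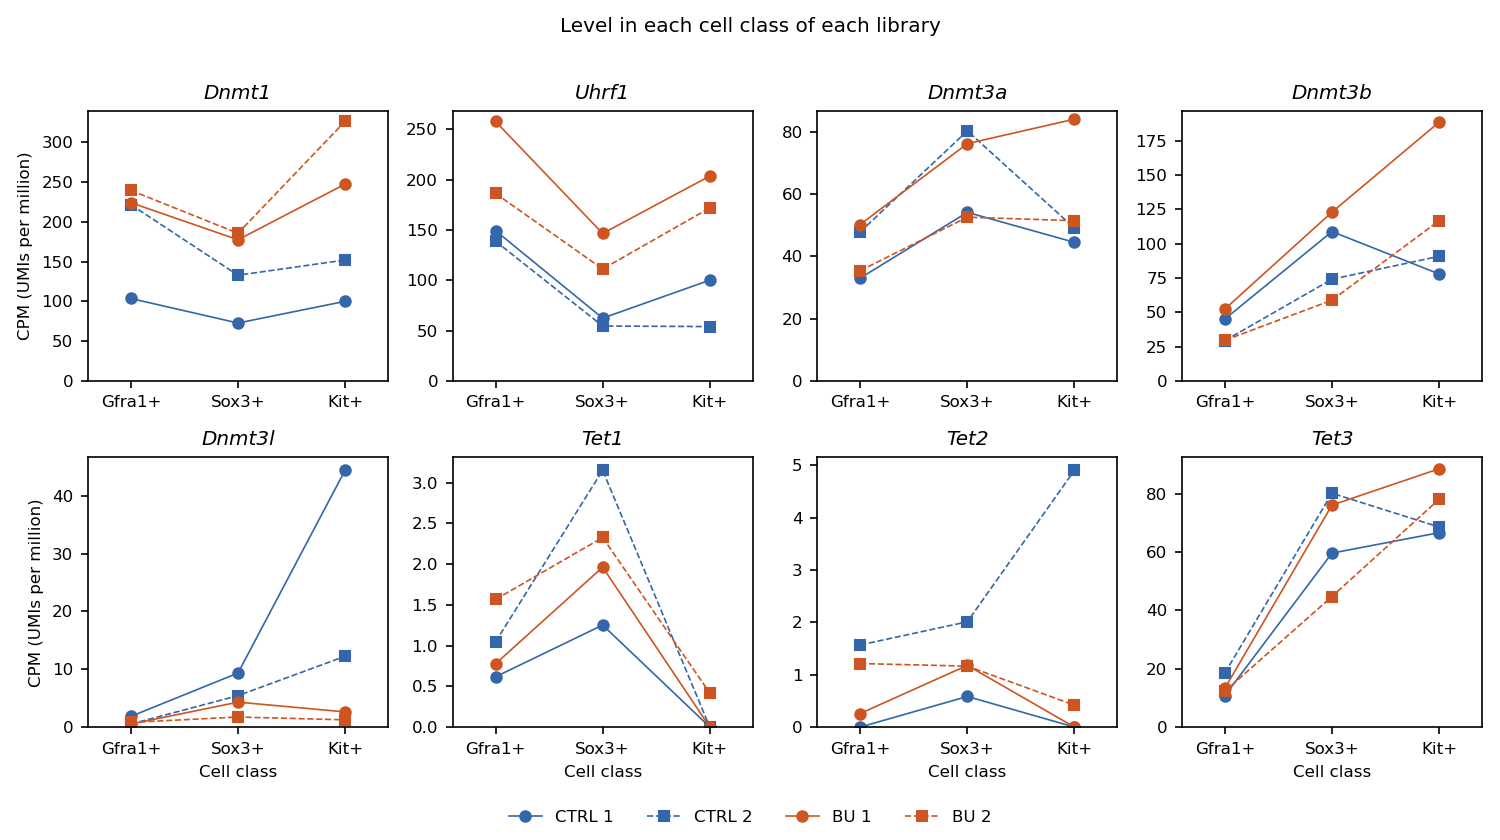
Level of each gene (y axis, CPM, from 0) in the Gfra1+, Sox3+ and Kit+ cells (x axis) of the 4 libraries, 1 line per library, with CTRL in blue, BU in orange, circles for experiment 1 and squares for experiment 2. Tet3 lay between 10.8 and 18.6 CPM in Gfra1+ cells and between 44.8 and 80.2 CPM in Sox3+ cells, without overlap.

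Tet3, an oxidising enzyme, had the largest fitted log2 difference of the 6 tested genes, close to that of Dnmt3l. Its level in CTRL 1, CTRL 2, BU 1 and BU 2 was 10.8, 18.6, 13.3 and 12.3 CPM in Gfra1+ cells. In Sox3+ cells it was 59.7, 80.2, 76.2 and 44.8 CPM. The classes did not overlap, with a mean of 65.2 ± 16.2 CPM in Sox3+ cells and 13.7 ± 3.38 CPM in Gfra1+ cells (SD, n = 4). The fitted log2 difference was 2.29 (SE 0.16, edgeR adjusted p = 9.47e-05). By the ratio of the mean levels, Dnmt3l came first, at 5.64 against 4.75 for Tet3.

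Dnmt3b, a de novo methyltransferase, stood at 45.0, 29.3, 52.3 and 29.5 CPM in the Gfra1+ cells of CTRL 1, CTRL 2, BU 1 and BU 2. In Sox3+ cells it stood at 109, 74.0, 123 and 58.8 CPM. The classes did not overlap, although both levels were lower in experiment 2. Its mean was 91.1 ± 29.8 against 39.0 ± 11.5 CPM (SD, n = 4), with a log2 difference of 1.27 (SE 0.16, edgeR adjusted p = 0.000578). Dnmt3a, the other de novo methyltransferase, was at 33.0 to 50.2 CPM in Gfra1+ cells and 52.5 to 80.3 CPM in Sox3+ cells. The ranges did not overlap and the log2 difference was 0.72 (SE 0.13, edgeR adjusted p = 0.00353).

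Dnmt3l, the cofactor of the de novo enzymes, was scarce in both classes, with 28 UMIs in Gfra1+ and 251 in Sox3+ cells. It was at 1.85, 0.523, 0.517 and 0.808 CPM in the Gfra1+ cells of CTRL 1, CTRL 2, BU 1 and BU 2. In Sox3+ cells it was at 9.35, 5.44, 4.32 and 1.75 CPM. The lowest Sox3+ level, in BU 2, lay below the highest Gfra1+ level, in CTRL 1. The log2 difference was 2.21 (SE 0.54, edgeR adjusted p = 0.0202), and it missed the threshold without CTRL 1 (edgeR adjusted p = 0.104) and without BU 1 (0.112). Over 12 alternatives its adjusted p ranged from 0.000208 to 0.112.

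Uhrf1, which guides Dnmt1, was at 149, 139, 258 and 186 CPM in the Gfra1+ cells of CTRL 1, CTRL 2, BU 1 and BU 2. In Sox3+ cells it was at 62.3, 54.5, 146 and 111 CPM. It was lower in Sox3+ cells within every library, although the level of BU 1 Sox3+ cells reached those of CTRL Gfra1+ cells. The log2 difference was -0.99 (SE 0.13, edgeR adjusted p = 0.000761). Dnmt1, the maintenance methyltransferase, was at 104, 222, 224 and 240 CPM in Gfra1+ and at 72.7, 133, 177 and 186 CPM in Sox3+ cells. The ranges overlapped and the log2 difference was -0.43 (SE 0.12, edgeR adjusted p = 0.0317). Without CTRL 1, BU 1 or BU 2 the log2 difference of Dnmt1 stayed at -0.44, -0.45 and -0.46, while the edgeR adjusted p was 0.159, 0.254 and 0.0963. Over 14 alternatives the adjusted p ranged from 0.000259 to 0.98 and the log2 difference from -0.49 to -0.03, and the call was lost in 8.

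Gfra1+ and Sox3+ cells also differed in their S phase genes. The summed S phase list was 2847, 2560, 4220 and 3839 CPM in the Sox3+ cells of CTRL 1, CTRL 2, BU 1 and BU 2 and 3945, 3654, 5106 and 3978 CPM in Gfra1+ cells. The classes were therefore also compared within S tertiles, a tertile being a set of cells ordered by the share of their UMIs in that list. In the upper tertile, Uhrf1 was lower by a log2 difference of -0.65 (edgeR adjusted p = 4.35e-07) and Dnmt1 gave -0.21 (0.149). In the lower tertile, Uhrf1 gave -0.78 (edgeR adjusted p = 0.206) and Dnmt1 -0.03 (0.98). Tet3, Dnmt3b and Dnmt3a passed the test in both, with log2 differences of 2.65, 2.15 and 1.19 in the lower and 1.82, 0.95 and 0.53 in the upper tertile. Dnmt3l was below the count filter in both. In the lower tertile, 9 of 46 and 32 of 75 Gfra1+ cells of CTRL 2 and BU 2 were somatic by markers, against 0 of 286 and 1 of 23 Sox3+ cells. The class fits within tertiles were not repeated without such cells.

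Kit+ cells held more Tet3 and Dnmt3b than Gfra1+ cells in 4 of 4 libraries. Tet3 was at 66.7, 68.6, 88.6 and 78.2 CPM in the Kit+ cells of CTRL 1, CTRL 2, BU 1 and BU 2, all above every Gfra1+ level. Against Gfra1+ cells the log2 differences were 2.48 for Tet3 (SE 0.18, edgeR adjusted p = 7.53e-05) and 1.71 for Dnmt3b (SE 0.18, 0.000337). Dnmt3b was at 77.8, 90.7, 188 and 117 CPM in Kit+ cells, also above every Gfra1+ level. The Kit+ sums of CTRL 1 and CTRL 2 held 89967 and 407997 UMIs of all genes, against 1523501 and 2392630 in BU 1 and BU 2, so the CTRL levels are coarse. Both calls were lost in the lower S tertile (edgeR adjusted p = 0.441 for Tet3 and 0.744 for Dnmt3b), where the Kit+ sums held 1 to 6 cells. In all, 5 of the 6 tested genes passed in this comparison, against 23.3% of all genes.

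The other 3 of these calls were less stable. Dnmt3a was at 44.5, 49.0, 84.0 and 51.4 CPM in the Kit+ cells of CTRL 1, CTRL 2, BU 1 and BU 2. These levels overlapped those of both other classes, and against Sox3+ cells they were lower in 3 of 4 libraries. Against Gfra1+ cells Dnmt3a was higher by 0.47 on the log2 scale (SE 0.15, edgeR adjusted p = 0.0432), Dnmt3l by 2.60 (SE 0.71, 0.0228), and Uhrf1 was lower (-0.58, SE 0.15, 0.0186). All 3 missed the threshold without CTRL 1 and without BU 1, where their log2 differences were 0.46 and 0.28 for Dnmt3a, 2.12 and 2.75 for Dnmt3l, and -0.57 and -0.73 for Uhrf1. Dnmt3a (0.47) and Uhrf1 (-0.76) also missed it without BU 2, and Dnmt3a missed it without shared barcodes (0.45, edgeR adjusted p = 0.0519). Dnmt3l rested on 16 UMIs in Kit+ cells and gave 1.92 (edgeR adjusted p = 0.0679) without the marked spermatid and somatic cells. Over the alternatives the adjusted p ranged from 0.00302 to 0.968 for Dnmt3a, 0.000694 to 0.0972 for Dnmt3l and 0.000257 to 0.370 for Uhrf1. Dnmt1 differed by 0.01 (SE 0.13, edgeR adjusted p = 0.983).

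Against Sox3+ cells, 1 of 6 genes passed in Kit+ cells, with 14.7% of all genes passing. Dnmt1 was at 100, 152, 248 and 326 CPM in the Kit+ cells of CTRL 1, CTRL 2, BU 1 and BU 2, and higher than in Sox3+ cells in 4 of 4 libraries. Its log2 difference was 0.44 (SE 0.13, edgeR adjusted p = 0.0461). The call was lost without CTRL 1, BU 1 or BU 2 (edgeR adjusted p = 0.108, 0.321 and 0.295), and the adjusted p ranged from 0.000424 to 0.523 over 14 alternatives. The upper S tertile held 50%, 26.7%, 75% and 83.0% of the Kit+ cells of CTRL 1, CTRL 2, BU 1 and BU 2, against 12.5%, 10.1%, 44.1% and 46.1% of the Sox3+ cells. Of the 32 S phase genes, 8 were higher in Kit+ cells and 1 lower. Within the upper tertile Dnmt1 differed by 0.22 (edgeR adjusted p = 0.215), and within the lower, where the Kit+ sums held 1 to 6 cells, by -0.84 (0.314). Uhrf1 (0.41, edgeR adjusted p = 0.0846), Dnmt3b (0.43, 0.114), Tet3 (0.19, 0.476), Dnmt3l (0.39, 0.715) and Dnmt3a (-0.25, 0.254) did not pass. Without the marked spermatid and somatic cells, Dnmt1 (0.61), Uhrf1 (0.57) and Dnmt3b (0.63) all did, with edgeR adjusted p-values of 0.00249, 0.00626 and 0.0155. Without CTRL 2, which held most of those cells in this class, 3 of the 6 genes passed.

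Tet1 and Tet2 were near the detection limit. All kept cells together held 199 UMIs of Tet1 and 130 of Tet2, against 5641 of Tet3. Tet1 was at 0.617, 1.05, 0.776 and 1.57 CPM in the Gfra1+ cells of CTRL 1, CTRL 2, BU 1 and BU 2, on 2, 4, 6 and 31 UMIs. In Sox3+ cells it was at 1.25, 3.15, 1.96 and 2.33 CPM, on 15, 69, 5 and 12 UMIs, higher than in Gfra1+ cells in 4 of 4 libraries. Kit+ cells held 1 UMI in all. Tet2 had 32 UMIs in Gfra1+, 60 in Sox3+ and 3 in Kit+ cells. With no filter on low counts, Tet1 differed between Sox3+ and Gfra1+ cells by 1.17 on the log2 scale (SE 0.52, edgeR adjusted p = 0.167) and Tet2 by 0.79 (SE 0.64, 0.562). In that fit Tet1 passed as lower in Kit+ than in Sox3+ cells (edgeR adjusted p = 0.0144), which rests on the single UMI of Kit+ cells.

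The expression of the maintenance pair by single cells was linked to that of cell cycle genes. Cells were ordered within each experiment by the share of their UMIs in 32 S phase genes, a list that holds none of the 8 genes. Dnmt1 and Uhrf1 were higher in the upper than in the lower tertile in 4 of 4 libraries, Dnmt3l and Tet2 passed in the other direction, and Dnmt3a, Dnmt3b, Tet1 and Tet3 did not pass. Among all 15217 genes tested, 45.4% passed, 21.6% higher and 23.9% lower, so that a call for 4 of 8 genes is near the share of all genes. The median log2 difference was -0.10 over the 8 genes and 0.00 over all genes.

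**Figure D2:**
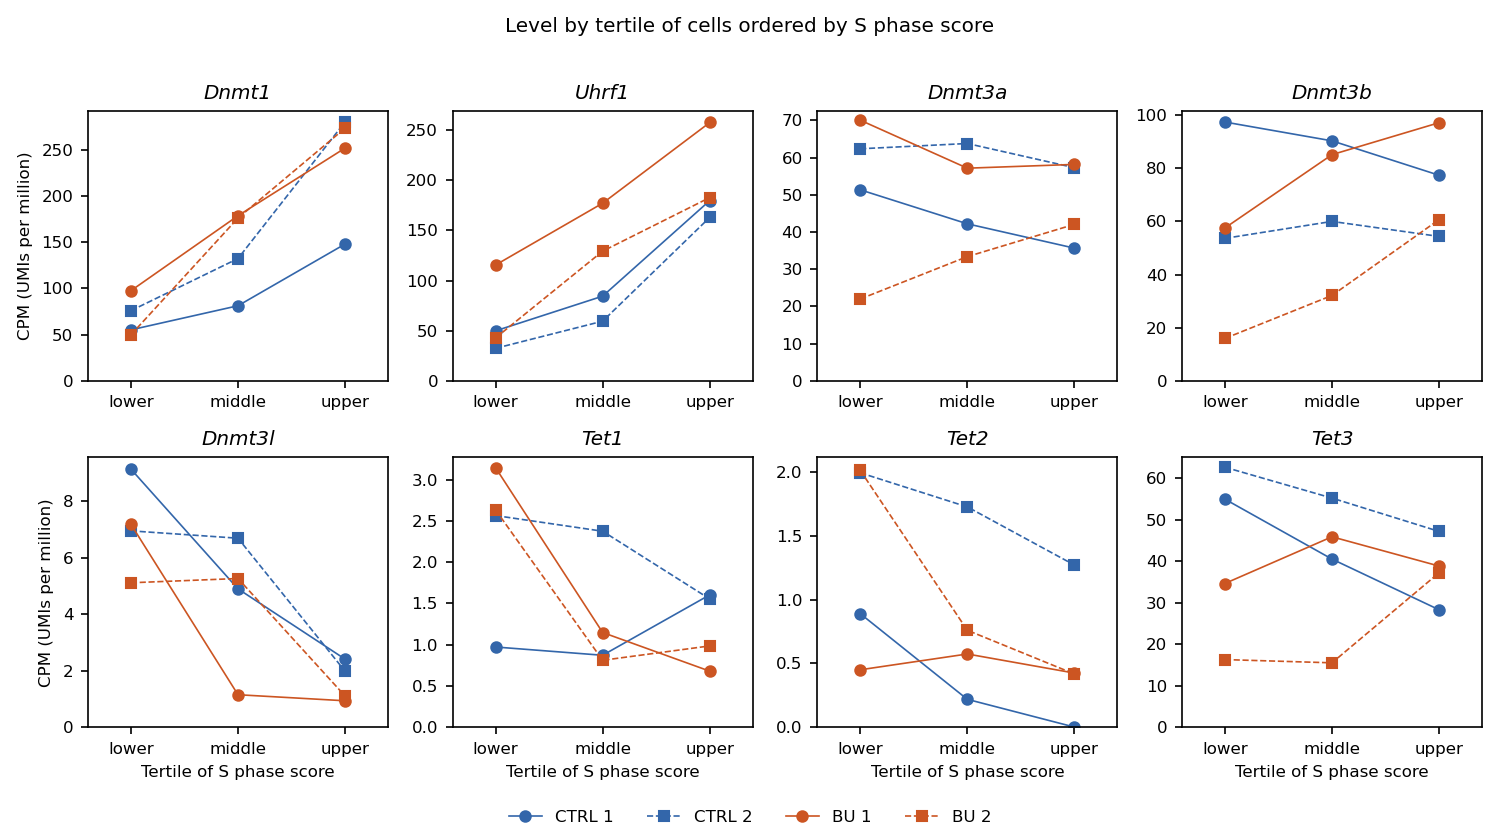
Level of each gene (y axis, CPM, from 0) in the lower, middle and upper tertile of cells by S phase score (x axis), 1 line per library, with CTRL in blue, BU in orange, circles for experiment 1 and squares for experiment 2. The Dnmt1 and Uhrf1 levels of every library climb with the score, from means of 69.6 and 60.1 CPM in the lower to 238 and 196 CPM in the upper tertile.

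Dnmt1 was at 55.2, 75.9, 97.5 and 49.7 CPM in the lower tertile of CTRL 1, CTRL 2, BU 1 and BU 2. In the middle tertile it was at 81.3, 132, 179 and 176 CPM, and in the upper at 148, 280, 252 and 274 CPM. The outer tertiles did not overlap, and the log2 difference was 1.67 (SE 0.16, edgeR adjusted p = 0.00021). Uhrf1 was at 49.8, 32.4, 115 and 42.7 CPM in the lower and at 180, 163, 258 and 183 CPM in the upper tertile. These did not overlap either, with a log2 difference of 1.76 (SE 0.18, edgeR adjusted p = 0.000289). The lower tertile also held more cells of other types. Spermatid or somatic cells made up 58 of its 1448 cells in CTRL 1, 151 of 545 in CTRL 2, 32 of 255 in BU 1 and 157 of 249 in BU 2, and 0, 11, 2 and 11 cells of the upper tertile. All 8 spermatid markers and 6 of 7 tested somatic markers were lower in the upper tertile. Without these cells Dnmt1 was at 58.3, 97.9, 104 and 114 CPM in the lower tertile of CTRL 1, CTRL 2, BU 1 and BU 2, and at 148, 291, 252 and 279 CPM in the upper. The differences were then 1.33 for Dnmt1 and 1.43 for Uhrf1 (edgeR adjusted p = 3.57e-07 and 2.49e-05), and both stayed higher in 4 of 4 libraries. Within Gfra1+ cells alone the differences were 1.52 for Dnmt1 and 1.43 for Uhrf1 (edgeR adjusted p = 2.19e-05 and 1.16e-05). These sums still held other cell types. Cells marked as somatic were 3 of 137, 9 of 46, 8 of 90 and 32 of 75 lower-tertile Gfra1+ cells of CTRL 1, CTRL 2, BU 1 and BU 2. The upper-tertile Gfra1+ cells held 0 in every library. The fit within Gfra1+ cells was not repeated without them.

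Dnmt3l went the other way. It was at 9.14, 6.95, 7.19 and 5.11 CPM in the lower tertile of CTRL 1, CTRL 2, BU 1 and BU 2, and at 2.40, 1.98, 0.932 and 1.10 CPM in the upper. The tertiles did not overlap, and 284 UMIs stood against 66. The log2 difference was -2.31 (SE 0.39, edgeR adjusted p = 0.00205). Spermatid cells by markers, those also somatic by markers included, were 108 of the 249 lower-tertile cells of BU 2. Without spermatid and somatic cells the difference was -1.80 (edgeR adjusted p = 0.000648). Within Sox3+ cells, Dnmt3l was at 12.5, 7.58, 10.9 and 2.84 CPM in the lower and at 3.35, 0.900, 1.82 and 1.19 CPM in the upper tertile, lower in 4 of 4 libraries, which rests on 2 to 82 UMIs per value and was not tested.

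The de novo enzymes and Tet3 did not share this link in the sum of all cells. Dnmt3a was at 22.0 to 70.1 CPM in the lower and 35.7 to 58.2 CPM in the upper tertile, with a log2 difference of -0.10 (SE 0.16, edgeR adjusted p = 0.618). It passed as lower without the marked spermatid and somatic cells (-0.37, edgeR adjusted p = 0.00612) and without BU 2 (-0.33), with adjusted p-values of 0.00612 to 0.975 over the alternatives. Tet3 gave -0.09 (edgeR adjusted p = 0.834). Dnmt3b gave 0.47 (SE 0.27, edgeR adjusted p = 0.182), and within Gfra1+ cells 1.09 (SE 0.17, 0.000292). Its level in Gfra1+ cells was 33.2, 12.8, 30.5 and 13.4 CPM in the lower and 51.4, 41.1, 55.5 and 31.1 CPM in the upper tertile of CTRL 1, CTRL 2, BU 1 and BU 2, higher in 4 of 4 libraries. In CTRL 2 and BU 2, 9 of 46 and 32 of 75 lower-tertile Gfra1+ cells were somatic by markers. All cells so marked in CTRL 2 and BU 2 held Dnmt3b at 1.30 and 1.94 CPM, on 1 and 2 UMIs. The part of these cells in the Dnmt3b difference was not tested.

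Tet2 fell by 1.71 on the log2 scale from the lower to the upper tertile (SE 0.53, edgeR adjusted p = 0.0267), on 60 against 25 UMIs. The call was lost without CTRL 1 (-1.40) and without BU 2 (-1.22), over a range of adjusted p from 0.0200 to 0.173. Without the marked spermatid and somatic cells Tet2 was below the count filter. Somatic cells by markers held Tet2 at 27.4, 10.4, 12.7 and 11.7 CPM in CTRL 1, CTRL 2, BU 1 and BU 2, on 1, 8, 1 and 12 UMIs, and 120 of all 122 such cells lay in the lower S tertile. Tet1 differed by -1.02 (SE 0.47, edgeR adjusted p = 0.103).

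With cells ordered by 32 G2/M genes, the same pair was higher in the upper tertile, Dnmt1 by 1.54 and Uhrf1 by 1.40 on the log2 scale (edgeR adjusted p = 0.000259 and 0.000596), where 50.7% of all genes passed. Dnmt3l was lower (-2.76, edgeR adjusted p = 0.00311). No alternative lost these calls. Over the alternatives the log2 difference of Dnmt3l ranged from -3.17 to -1.39. That of Dnmt1 ranged from 1.10 to 1.68 and that of Uhrf1 from 0.96 to 1.63. Spermatid cells by markers, those also somatic by markers included, made up 33.2% of the lower G2/M tertile in CTRL 2 and 37.7% in BU 2. In CTRL 1 and BU 1 they made up 3.49% and 2.76%. Dnmt3b was higher by 0.78 (edgeR adjusted p = 0.0225) and lost the call without BU 1 (0.62), without BU 2 (0.51) and without the marked spermatid and somatic cells (0.34). Its adjusted p ranged from 0.000143 to 0.136. Tet3 (0.62, edgeR adjusted p = 0.0906), Dnmt3a (0.11, 0.663), Tet1 (-0.24, 0.716) and Tet2 (-0.83, 0.248) did not pass. The scores moved together and did not separate the phases, since of the 32 G2/M genes, 30 were also higher in the upper S tertile.

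The second question was how the 8 genes differed after busulfan. In the sum of all kept cells, Uhrf1 was at 86.2 and 66.2 CPM in the CTRL libraries of experiments 1 and 2 and at 216 and 146 CPM in the BU libraries. Dnmt1 was at 81.7 and 134 CPM in CTRL and at 211 and 210 CPM in BU. Both were higher in BU in each experiment, without overlap of the groups, by 2.50 and 2.20 times for Uhrf1 and 2.59 and 1.57 times for Dnmt1. Dnmt3l was at 6.40 and 5.94 CPM in CTRL and at 1.67 and 3.15 CPM in BU, also without overlap. Tet3 was at 44.9 and 57.1 CPM in CTRL and at 40.7 and 26.5 CPM in BU.

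With 2 libraries per group and no term for the experiment, edgeR called 0 of 17354 genes (0%), although 926 had an unadjusted p under 0.05, and DESeq2 called 120, none of them among the 8. The log2 differences were 1.27 for Uhrf1 (SE 0.35, edgeR adjusted p = 0.872), 1.00 for Dnmt1 (SE 0.32, 0.886), -1.33 for Dnmt3l (SE 0.49, 0.935) and -0.57 for Tet3 (SE 0.36, 1.00). With the experiment as a replicate block, 258 genes (1.49%) passed, and of the 8 genes Uhrf1 did. Its blocked log2 difference was 1.26 (SE 0.19, edgeR adjusted p = 0.0350). The blocked values of Dnmt1 and Dnmt3l were 1.04 (SE 0.22, edgeR adjusted p = 0.0761) and -1.36 (SE 0.38, 0.121). For Tet3, Tet2, Tet1, Dnmt3a and Dnmt3b they were -0.60 (edgeR adjusted p = 0.306), -0.77 (0.446), -0.53 (0.559), -0.17 (0.809) and -0.16 (0.733). Dnmt3a stood at 1.31 and 0.587 times the CTRL level in experiments 1 and 2.

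These calls turned on which cells were counted. With the block, Uhrf1 missed the threshold without doublets (1.26, edgeR adjusted p = 0.0777) and with a mitochondrial limit of 10% (1.24, 0.0513). With the block and without shared barcodes, Uhrf1 (1.16), Dnmt1 (0.93) and Dnmt3l (-1.83) passed, with edgeR adjusted p-values of 0.00252, 0.0178 and 0.00241 and 8.58% of all genes passing. With the block and without the marked spermatid and somatic cells, the same 3 genes passed at 1.16, 0.94 and -2.26 (edgeR adjusted p = 0.00229, 0.0123 and 0.000555), with 11.4% of all genes. The largest move was that of Dnmt3l, which stood at 17.7 and 19.8 CPM in the marked spermatid cells of CTRL 2 and BU 2. Those cells held 122 of the 166 Dnmt3l UMIs of BU 2 and 87 of the 229 of CTRL 2. Over 25 alternatives the adjusted p ranged from 0.000151 to 1 for Uhrf1, 0.0123 to 1 for Dnmt1 and 0.000555 to 1 for Dnmt3l.

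**Figure D3:**
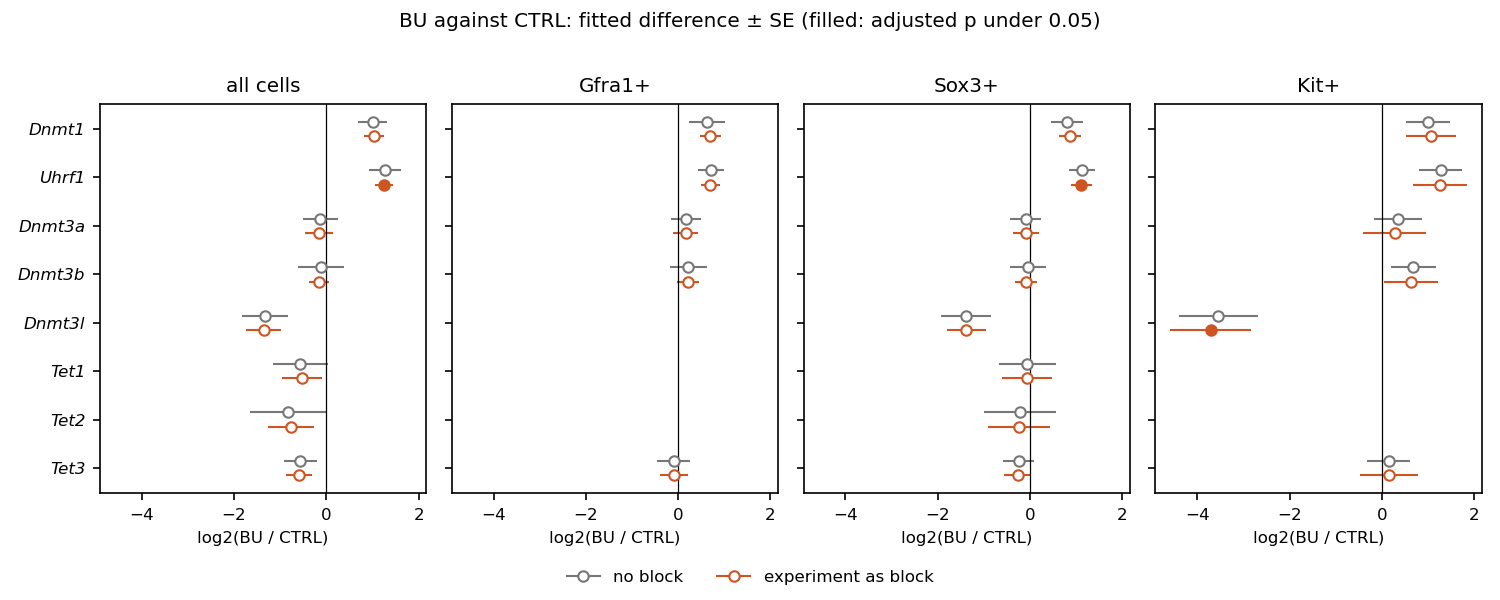
Fitted log2 difference of BU against CTRL (x axis, bars 1 SE) for each gene (y axis) in all cells and in Gfra1+, Sox3+ and Kit+ cells, without a block in grey and with the experiment as a block in orange, filled where the adjusted p was under 0.05 and left out where a gene was below the count filter. Dnmt1 and Uhrf1 lie to the right of 0 in all 4 panels, and the filled points are Uhrf1 in all cells and Sox3+ cells and Dnmt3l in Kit+ cells, all with the block.

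The makeup of the libraries differed between the groups. In experiments 1 and 2, Gfra1+ cells made up 13.96% and 11.96% of CTRL cells against 36.3% and 35.9% of BU cells. Sox3+ cells made up 41.9% and 49.3% against 12.2% and 10.1%. The upper S tertile, set over the CTRL and BU cells of an experiment together, held 18.9% and 18.2% of CTRL and 55.6% and 46.8% of BU cells. In the sum of all cells, a change in the number of cells of a kind and a change in RNA per cell cannot be told apart.

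Within each class the pair stood above CTRL in both experiments. The groups were not matched for S phase score within a class. The upper S tertile held 30.0% and 33.6% of CTRL against 57.3% and 43.4% of BU Gfra1+ cells in experiments 1 and 2. For Sox3+ cells these shares were 12.5% and 10.1% against 44.1% and 46.1%. In Gfra1+ cells, Uhrf1 was 1.73 and 1.34 times and Dnmt1 2.16 and 1.08 times the CTRL level in experiments 1 and 2, and without the block no gene of 12984 (0%) passed (448 at an unadjusted p under 0.05, 4 by DESeq2). With the block 0.608% of all genes passed and none of the 5 tested here, where Uhrf1 and Dnmt1 each gave 0.70 (SE 0.21 and 0.23, edgeR adjusted p = 0.154 and 0.210). In Sox3+ cells, Uhrf1 was 2.35 and 2.04 times the CTRL level. Over 24 alternatives, the outer S tertiles among them, its log2 difference there ranged from 0.18 to 1.26, and that of Dnmt1 from 0.05 to 1.25. Leaving out 1 library gave 0.92 to 1.26 for Uhrf1 and 0.41 to 1.25 for Dnmt1, so the lowest values came from other alternatives. No gene of 13536 (0%) passed there without the block (1087 at an unadjusted p under 0.05, 49 by DESeq2). With the block 1.48% did, and Uhrf1 passed at 1.12 (SE 0.23, edgeR adjusted p = 0.0304, range over alternatives 0.00408 to 1.00), while Dnmt1 gave 0.87 (SE 0.24, 0.0835) and passed without shared barcodes (0.85, 0.0320).

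Kit+ cells gave the least precise values, since CTRL 1 and CTRL 2 held 10 and 15 of them. Dnmt1 was 2.47 and 2.15 times and Uhrf1 2.03 and 3.19 times the CTRL level in experiments 1 and 2. No gene of 9236 (0%) passed without the block (996 at an unadjusted p under 0.05, 66 by DESeq2), and 2.92% did with it. Of the 6 genes tested, Dnmt3l passed with the block at -3.71 (SE 0.88, edgeR adjusted p = 0.00238), on 4, 5, 4 and 3 UMIs in CTRL 1, CTRL 2, BU 1 and BU 2. The 5 UMIs of CTRL 2 were in cells marked as spermatid or somatic, and without such cells Dnmt3l could not be tested. Without CTRL 1 and without the block, the log2 difference of Uhrf1 was 1.61, in a range of 0.30 to 1.61 over its alternatives. That fit left CTRL 2 as the only CTRL sum, where 6 of the 15 Kit+ cells were neither spermatid nor somatic by markers. The other cells also lie in the CTRL 2 levels under the experiment 2 ratios of Dnmt1 and Uhrf1. Marked spermatid and somatic cells of CTRL 2 held Uhrf1 at 9.17 and 1.30 CPM over all classes.

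The BU difference was then compared within the S tertiles, with the experiment as a block. In the middle tertile, Dnmt1 was at 81.3 and 132 CPM in CTRL and at 179 and 176 CPM in BU, and Uhrf1 at 84.4 and 59.5 against 177 and 129 CPM. Neither gene overlapped between the groups there. Both passed, at 0.82 for Dnmt1 (SE 0.23, edgeR adjusted p = 0.0312) and 1.14 for Uhrf1 (SE 0.23, 0.00254), with 4.75% of all genes. The middle tertile was not matched for the G2/M genes, nor fully for the S phase score. The G2/M list summed to 3893 and 4112 CPM in CTRL and to 6829 and 6514 CPM in BU there. The S phase list summed to 3252 and 2758 CPM in CTRL and to 3450 and 3106 CPM in BU. The part of either list in the differences of Dnmt1 and Uhrf1 was not tested. In the upper tertile, Dnmt1 was at 148 and 280 CPM in CTRL and at 252 and 274 CPM in BU, with overlap, and differed by 0.36 (SE 0.27, edgeR adjusted p = 0.657). Uhrf1 was at 180 and 163 against 258 and 183 CPM, without overlap, and differed by 0.34 (SE 0.27, edgeR adjusted p = 0.693), where 2.86% of all genes passed.

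The lower tertile held different mixtures of cells, with the spermatid and somatic cells of BU 2 given above. In all its cells (0.843% of genes passed), Dnmt1 was 1.77 times the CTRL level in experiment 1 and 0.655 times in experiment 2, with a fitted log2 difference of 0.04 (SE 0.42, edgeR adjusted p = 0.974). Uhrf1 gave 0.74 (SE 0.39, edgeR adjusted p = 0.394). Without the spermatid and somatic cells, Dnmt1 gave 0.52 (SE 0.25, edgeR adjusted p = 0.225) and Uhrf1 passed at 1.21 (SE 0.26, 0.000151). In these cells Tet3 was at 57.9 and 80.3 CPM in CTRL and at 35.5 and 26.0 CPM in BU, and lower by the test (-1.17, edgeR adjusted p = 0.00125). Dnmt3b (-0.86, edgeR adjusted p = 0.0204) and Dnmt3l (-1.77, 0.0247) were lower too, and 7.56% of all genes passed.

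Without the spermatid and somatic cells, the middle tertile gave 0.82 for Dnmt1 (edgeR adjusted p = 0.056), 1.15 for Uhrf1 (0.0127) and -1.82 for Dnmt3l (0.0434), with 4.48% of all genes. In the upper tertile none of the 7 genes tested passed (2.38% of all genes), with Uhrf1 at 0.32 (edgeR adjusted p = 0.749) and Tet3 at 0.01 (0.998). The classes, the S phase score and the G2/M genes were not matched within a tertile. Among the remaining lower-tertile cells, Sox3+ cells made up 51.7% and 72.3% in CTRL and 21.1% and 22.8% in BU. BU and CTRL were also fitted within Gfra1+ and within Sox3+ cells of the lower and upper tertile, with the marked cells kept. Dnmt1, Uhrf1, Dnmt3b and Tet3 passed in none of these fits. Such fits were not run without the marked cells, and the part of the classes in the tertile differences was not tested.

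Whether the BU difference itself differed between classes was tested as an interaction. Against the difference in Gfra1+ cells, that in Sox3+ cells was larger by 0.38 for Uhrf1 (SE 0.15, edgeR adjusted p = 0.706) and 0.13 for Dnmt1 (SE 0.16, 0.968), and none of the 6 genes tested passed (0.0377% of all genes did). For Kit+ cells the values were 0.77 for Uhrf1 (SE 0.27, edgeR adjusted p = 0.124), 0.57 for Dnmt1 (SE 0.23, 0.174) and -3.18 for Dnmt3l (SE 1.08, 0.111). None of the 6 passed, where 4.13% of all genes did. Leaving out 1 library gave 0.47 to 0.89 for Dnmt1 and 0.47 to 1.04 for Uhrf1. Without CTRL 1 the only CTRL Kit+ sum was that of CTRL 2, where 6 of 15 cells were neither spermatid nor somatic by markers.

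The other genes of the pathway were taken from 4 lists. They are the readers that bind methylated CpG, the enzymes of base excision and active demethylation, the partners that recruit or limit methylation, and the supply of methyl donors and cofactors. Between Sox3+ and Gfra1+ cells, 1 of 7 readers, 1 of 11 excision genes, 3 of 13 partners and 2 of 9 supply genes passed, shares to be read against the 13.6% of all genes. The list medians were -0.13, -0.03, 0.04 and 0.18 on the log2 scale.

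**Figure D4:**
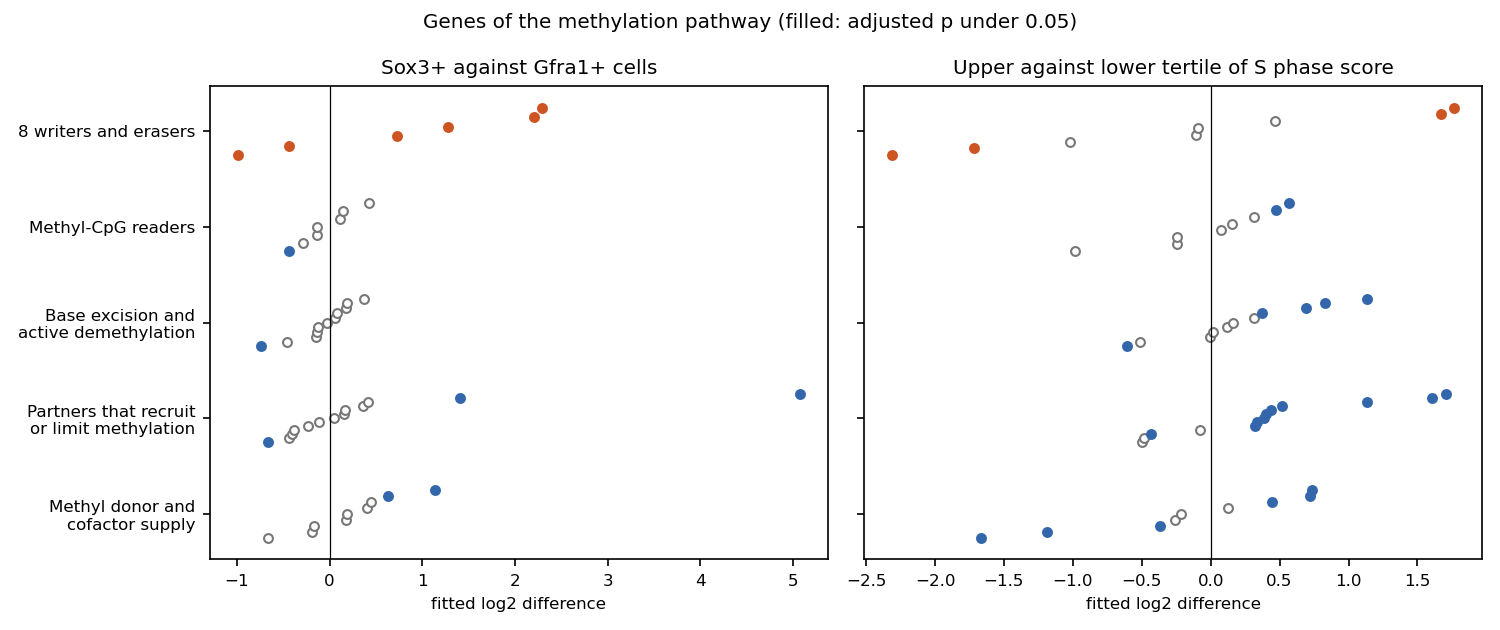
Fitted log2 difference (x axis) of each tested gene of the 8 writers and erasers and of 4 pathway lists (y axis, 1 point per gene, spread vertically for legibility), between Sox3+ and Gfra1+ cells on the left and between the upper and lower S tertile on the right, filled where the adjusted p was under 0.05. On the left 6 of 6 writers and erasers are filled against 1 of 7 readers, and on the right 10 of 13 partners are filled, with Pcna and Hells at 1.71 and 1.60.

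Ehmt2, a histone H3K9 methyltransferase, was higher in Sox3+ than in Gfra1+ cells by 1.41, and Ogt, a sugar transferase that partners Tet proteins, by 1.14. Ehmt2 was at 72.6, 83.9, 49.5 and 50.5 CPM in the Gfra1+ cells of CTRL 1, CTRL 2, BU 1 and BU 2 and at 201, 225, 122 and 114 CPM in Sox3+ cells, without overlap. Dppa3, a protein that limits Uhrf1 in the oocyte and early embryo, rose with a fitted log2 difference of 5.07. It had 1, 1, 0 and 4 UMIs in Gfra1+ and 134, 226, 20 and 13 UMIs in Sox3+ cells. Mat2b, a regulatory subunit of methionine adenosyltransferase, was higher by 0.63. Pcna, the replication clamp that binds Dnmt1, was lower (-0.67), as were Gadd45a (-0.74) and Uhrf2, the relative of Uhrf1 (-0.44).

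In Kit+ against Sox3+ cells, 1 of 7 readers, 3 of 11 excision genes, 4 of 13 partners and 3 of 9 supply genes passed (14.7% of all genes). In Kit+ against Gfra1+ cells, 3 readers, 2 excision genes, 5 partners and 1 supply gene passed (23.3%). Of these, Gadd45b, a stress-induced gene tied to demethylation, was higher than in Gfra1+ cells by 1.49. Kdm2b, a histone demethylase with a CpG-binding domain, was lower (-1.11), as was Uhrf2 (-0.87). Between the S tertiles, 9 of 13 partners were higher and 1 lower, with 21.6% and 23.9% of all genes. The partners included Pcna (1.71), Hells (1.60), a chromatin remodeller needed for methylation of repeats, and its partner Cdca7 (1.13). Hells was at 102, 183, 204 and 92.8 CPM in the lower and at 244, 582, 520 and 576 CPM in the upper tertile of CTRL 1, CTRL 2, BU 1 and BU 2. The marked spermatid and somatic cells, most of them in the lower tertile, stayed in the tertile sums of all list genes.

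Among the excision genes, 4 of 11 were higher in the upper S tertile, among them Tdg (0.69), the glycosylase that removes oxidised methylcytosine, and Mbd4 (0.83), a glycosylase of deaminated sites, while Polb was lower (-0.61). Among the supply genes 3 were higher and 3 lower. Mat2a, which makes S-adenosylmethionine, gave 0.74, Ogt -1.19 and Idh2, a mitochondrial source of the cofactor of Tet enzymes, -1.66. Of 8 readers, Uhrf2 (0.57) and Zbtb33 (0.48) were higher. By G2/M score, 4 readers, 4 excision genes, 7 partners and 3 supply genes were higher and 0, 0, 1 and 2 lower, beside 26.4% and 24.4% of all genes. Of the lists, no gene passed in BU against CTRL without the block, and with it Ehmt2 was lower in all cells (-1.14, edgeR adjusted p = 0.0452) and Idh1 in Kit+ cells (-2.24, 0.0345). The BU difference in Kit+ cells was lower than that in Gfra1+ cells for Idh1 (-2.22), Idh2 (-3.69) and Ogt (-1.29). Of these, Idh1 and Idh2 stood at 210 and 66.6 CPM in the CTRL 2 Kit+ sum that held the somatic markers, and at 0 to 55.7 CPM in the other Kit+ sums.

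Genes whose pattern over the 12 sums of class and library was most like that of a writer or eraser, within experiments, were ranked by Pearson's r among 9059 genes, as a description. For Uhrf1 these were Pcna (0.99), Lig1 and Gclc (both 0.98), and for Dnmt1 Phf12 (0.98), Rrm1 (0.98) and Ccar1 (0.97). For Tet3 they were Zfp516 (0.98), Bcl7c (0.97) and Pld6 (0.95), for Dnmt3b Pabpc4 (0.98), Itsn1 (0.97) and Ptprf (0.94), and for Dnmt3a Cecr2 (0.95), Jmy (0.93) and Rhobtb3 (0.92). For Dnmt3l they were Slc39a3 (0.96), Ubtd1 (0.96) and Ggct (0.94), on few UMIs, as for Tet1 (Napg, Pou5f1 and Acer2, 0.92 to 0.96). Between the 8 genes r was 0.92 for Dnmt3b with Tet3, 0.88 for Dnmt1 with Uhrf1 and -0.79 for Uhrf1 with Dnmt3l. The 12 sums share libraries and depth, so they are not independent points.

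The marked spermatid cells gave a different profile from the classes. Their Dnmt3l level was 7.20, 17.7, 39.2 and 19.8 CPM in CTRL 1, CTRL 2, BU 1 and BU 2, on 5, 87, 7 and 122 UMIs. Their Dnmt1 level was 2.88, 5.50, 67.1 and 9.58 CPM, and Tet1 and Tet2 had 0 UMIs there in all 4 libraries. BU 1 held 15 of these cells. Dnmt3c, the rodent copy of Dnmt3b that acts on young transposons in fetal germ cells, was listed only in experiment 2, with 1 UMI in the 1120 cells of CTRL 2 and 0 in the 1264 cells of BU 2.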

How the data were processed

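The authors deposited filtered Cell Ranger 3.0.2 (file header) counts of UMIs per gene and cell, without normalisation. The paper names mm10 and the submitters' processing notes GRCm39 and Seurat 3.2. The labels give version 2 of the droplet kit for experiment 1 and 3.1 for experiment 2, the paper version 2 for all. Genes were matched by identifier, and the experiment 1 and 2 libraries share 27514.

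A cell was positive for a gene when the natural log of 1 plus 100000 times its share of UMIs exceeded 2. A single UMI passed this threshold in 96.9% and 90.1% of the cells of CTRL 1 and BU 1 and in 17.0% and 13.8% of those of CTRL 2 and BU 2. UMIs were summed per library over classes and over tertiles of list scores, set within an experiment. Sums were tested with edgeR 4.0.16 (filterByExpr, TMM, quasi-likelihood, Benjamini-Hochberg over all genes, R 4.3.3), with the library as a term for classes and tertiles, and DESeq2 1.42.0 as an alternative. The 8 genes were fitted in every comparison where they passed the count filter, and not all are named in each. Of each pathway list up to 3 genes per direction with the lowest adjusted p were open to naming. Likeness used log2(CPM + 1) over the 12 sums, less each gene's mean in its experiment, for genes of at least 10 CPM, and its result for Tet2 is not reported here. Doublets, 152 cells (2.03%) by the scrublet method of scanpy 1.11.5 at 0.8% per 1000 cells, stayed in and were removed in an alternative, since the method's own threshold called 15 (0.200%). Other alternatives left out each library, other cell types or shared barcodes, thinned cells to 5000 UMIs, used no count filter, a mitochondrial limit of 10% or every cell above the class threshold, or compared within tertiles or Gfra1+ cells. The fits without shared barcodes, in the middle tertile, or with the block and another choice were chosen after seeing the data. The fits were tested on simulated data.

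The numbers 1 and 2 pair the libraries, since the labels give each experiment its own kit. By the paper, the libraries of an experiment shared a sequencing lane. Same-numbered libraries deviated together (r = 0.778 in all cells, 0.715 in Gfra1+, 0.610 in Sox3+ and 0.357 in Kit+ cells). The 8 genes and the lists were chosen with earlier results of these data known. Libraries of pooled mice limit the precision to n = 2 per group. In the blocked fits of 4 libraries, the SE and p-values lean on the spread shared over all genes. They say little about how much a single gene varies between libraries.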

Additional observations from a re-analysis of the deposited data

How the results depend on the processing

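Of 1182 comparisons of a gene with an alternative, 1082 kept their side of the threshold without reversing a call, 41 lost the call, 56 gained one and 3 reversed. A call could be lost only where the main fit held one, and the main fits of BU against CTRL called no gene. The 1082 include such fits and do not measure how stable the called results were. Of the 1082, 83 had another sign and were uncalled in both fits. A reversal is another sign with a call in either fit, and none of the 3 was called in both directions. All 3 reversals were in the lower S tertile, where the Kit+ sums held 1, 6, 6 and 4 cells in CTRL 1, BU 1, CTRL 2 and BU 2: Dnmt1 (-0.84, adjusted p = 0.314) and Tet3 (-1.77, 0.0445) against Sox3+ cells, and Dnmt3a (-0.044, 0.968) against Gfra1+ cells. Of the 8 genes, 6 passed between Sox3+ and Gfra1+ cells, and 3 did in the lower tertile. Between Kit+ and Sox3+ cells 1 passed, but 3 with DESeq2, 3 without somatic or spermatid cells, 2 in the upper tertile, 0 with thinned classes and 0 to 3 without 1 library. Between Kit+ and Gfra1+ cells 5 passed, but 0 in the lower tertile, 3 with thinned classes and 2 to 5 without 1 library. In the main fits of these comparisons, in the order given, 13.6%, 14.7% and 23.3% of all genes passed. The shares of all genes in the alternatives are not given, so a changed count is no result about the 8 genes.

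For BU against CTRL, 0 passed without a block. In all cells the replicate block gave 1 (1.49% of all genes passed), and 2 with DESeq2. It gave 3 with somatic or spermatid cells left out (11.4%), 3 with shared barcodes left out (8.58%) and 2 in the middle S tertile (4.75%). Without somatic or spermatid cells the block gave 4 in the lower (7.56%) and 2 in the middle tertile (4.48%). In Sox3+ cells the block gave 1, also without somatic or spermatid cells, without doublets, with the lower mitochondrial limit and with DESeq2, 2 without shared barcodes, 3 with every cell above the threshold and 2 with thinned classes. In Kit+ cells the block gave 1, as it did without doublets, with the lower mitochondrial limit, without shared barcodes, with every cell above the threshold and with thinned classes. There, without a block, no count filter gave 1 and leaving out 1 library 0 to 1, and in the lower tertile none of the 8 genes could be tested. In Gfra1+ cells the block changed no call. For the difference between the BU effects of Kit+ and Gfra1+ cells, 0 became 1 with every cell above the threshold, 2 with thinned classes and 0 to 2 without 1 library. The share of all genes that passed moved with the setting too, so a changed count is no result about the 8 genes. The causes of these changes were not tested. Depth limits Tet1, Tet2 and Dnmt3l, and the 10 and 15 Kit+ cells of CTRL 1 and CTRL 2 limit that class.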
